A study of Mus musculus with 27 samples.

Results

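The genes described here are those whose symbol starts with Kcn, the prefix for potassium channel subunits and their partners, without the imprinted transcript Kcnq1ot1. They number 83 among the 18193 gene symbols of the array annotation and are covered by 161 probe sets. A gene was read from the probe set that was brightest on average over the 27 arrays. Of the 83, 52 lay above a floor of 6 (log2) in 3 or more arrays and were tested, among 12017 such genes. The literal rule also takes in Kcnmb4os1 and Kcnmb4os2, antisense transcripts at the Kcnmb4 locus. Symbols that the rule did not find on the array are not analysed here.

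Potassium channels return a neuron to its resting potential, shape the action potential and set how readily it fires again. Medium spiny neurons, the projection neurons of the striatum, rest at a very negative potential held by inwardly rectifying (Kir) channels, and their first spike is delayed by Kv1 and Kv4 channels that open near threshold. Kv7 channels carry the M current that acetylcholine suppresses, and tandem pore (K2P) channels carry leak current. Many Kcn genes encode subunits that form no channel on their own. The modifier Kv subunits (Kcnf, Kcng, Kcns, Kcnv) assemble with Kv2 subunits, and KChIP, KCNE and beta subunits change trafficking and gating.

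Ribosome-bound messenger RNA was profiled from striata of 2 to 5 month old males by translating ribosome affinity purification (TRAP), in which a GFP-tagged ribosomal protein L10a is made in neurons that express dopamine receptor D1 (Drd1) or D2 (Drd2) and its ribosomes are pulled down. The tag was present in all mice, and so were 2 floxed alleles of Ehmt2, which encodes G9a, an enzyme that methylates histone H3. The background mixed C57BL/6 (G9a line) with 129/Sv (the line of the tag), after 2 generations of C57BL/6 backcrossing. In mutants a Cre transgene was driven by the receptor promoter that also drove the tag, Drd1 or Drd2. Controls lacked Cre, and an effect of G9a loss therefore cannot be told apart from one of the transgene. Mice received 8 injections of cocaine at 20 mg/kg/day or of saline and were taken 2 h after the last. The arrays comprised 7 D1 mutants (4 cocaine, 3 saline), 6 D1 controls (4 cocaine, 2 saline), 7 D2 mutants (4 cocaine, 3 saline) and 7 D2 controls (4 cocaine, 3 saline). The labels count replicates as mice, 2 to 4 per genotype and drug, and an array is taken as 1 mouse here. A bulk measurement of this kind cannot tell fewer cells of a type from less RNA per cell.

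The labels were checked before the results. Drd2 averaged 6.88 in D1 mutants and 12.78 in D2 mutants, and 6.78 in D1 controls against 13.27 in D2 controls. Drd1 averaged 12.60 in D1 mutants and 10.49 in D2 mutants, and 12.55 in D1 controls against 9.95 in D2 controls. Ehmt2 lay between 8.03 and 9.37 in D1 mutants against 9.95 to 10.74 in D1 controls, and between 8.68 and 9.38 in D2 mutants against 10.67 to 11.01 in D2 controls. The labels of D2 mutant cocaine replicate 4 conflict, since its title gives a mutant and its source name a control. Its Ehmt2 level was 8.96, within the range of the other D2 mutants, and it was kept as a mutant. The titles of D2 mutants give the tag without the receptor number. Ttr, a choroid plexus transcript, was above 9.5 in 3 arrays (replicate 3 of D1 mutant saline, D1 control cocaine and D2 control cocaine).

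Of the 52 Kcn genes above the floor, 46 exceeded it in every array and 6 in some. Per array, between 48 and 53 Kcn genes lay above 6. All 3 Kv3 genes, all 3 Kv4 genes, all 4 KChIP genes and all 4 genes for small or intermediate conductance calcium-activated channels passed the floor. So did all 3 of Kcnt1, Kcnt2 and Kcnu1 (Slack, Slick and Slo3), the pore gene Kcnma1 of the large conductance BK channel, 2 of 3 BK beta genes, 6 of 7 Kv1 genes, 2 of 3 Kv1 beta genes and 2 of 3 Kv7 genes. Fewer members passed among the EAG, ERG and ELK genes (3 of 6), modifier Kv subunits (5 of 9), KCNE genes (1 of 5), Kir genes (7 of 15) and K2P genes (5 of 12), and 1 of the 2 antisense transcripts passed.

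The 31 genes below the floor were Kcna3, Kcnab3, Kcne1, Kcne1l, Kcne2, Kcne3, Kcng4, Kcnh5, Kcnh7, Kcnh8, Kcnj1, Kcnj2, Kcnj5, Kcnj8, Kcnj13, Kcnj14, Kcnj15, Kcnj16, Kcnk4, Kcnk5, Kcnk6, Kcnk10, Kcnk12, Kcnk15, Kcnk16, Kcnmb1, Kcnmb4os1, Kcnq1, Kcns1, Kcns3 and Kcnv2. A probe set below the floor says that this probe set gave little signal, not that the gene is off. The floor was crossed narrowly by some members: the value in the third highest array was 6.03 for Kcnn4 and 6.12 for Kcng2, just inside, and 5.98 for Kcnab3 and 5.93 for Kcnj16, just outside. Kcnt2 passed through the 7 D2 mutants alone, in which its probe set lay between 6.08 and 6.62. In all 18193 genes fitted without the floor, Kcnj5 (a GIRK subunit) among the 31 was higher in D1 in mutants and in controls, and Kcns1, a modifier subunit, was higher in D1 than D2 mutants and lower in D2 mutants than D2 controls.

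D1 and D2 neurons differed in many genes, and channel subunits were among them. In mutants, 12 Kcn genes were higher and 9 lower in D1 (limma, Benjamini-Hochberg adjusted p under 0.05 over all 12017 genes), and in controls 11 were higher and 8 lower. All genes tested passed in 42.4% of cases in mutants and 29.0% in controls, and Kcn genes in 40.4% and 36.5%. The Kcn share was thus slightly below that of all genes in mutants and above it in controls. Higher in D1 made up 16.6% of all genes in mutants and 11.9% in controls, against 23.1% and 21.2% of Kcn genes. Lower in D1 made up 25.8% of all genes in mutants and 17.1% in controls, against 17.3% and 15.4% of Kcn genes. The median Kcn difference was 0.00 in mutants and 0.01 in controls, beside -0.04 and -0.03 over all genes. Among the 46 members above the floor in every array, 11 were higher and 8 lower in D1 in mutants, and 10 and 7 in controls. Of all 10281 such genes, 43.7% passed in mutants and 29.8% in controls. Under cyclic loess scaling 15 Kcn genes were higher and 6 lower in D1 mutants, and 12 and 6 in D1 controls, while the D1-higher share of all passing genes moved to 51.6% (deposited values 39.1%) in mutants and to 52.1% (41.0%) in controls.

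The control and mutant arrays are separate, so the comparison can be set side by side. Of the Kcn genes that passed, 13 passed in both genotypes, which is 13 of the 21 in mutants and 13 of the 19 in controls, and all 13 had the same direction. Among all genes tested, 22.6% passed in both genotypes, and 99.5% of those had the same direction. Among Kcn genes 25% passed in both. Of the mutant calls, 61.9% for Kcn genes and 53.4% for all genes were also control calls. Of the control calls, 68.4% for Kcn genes and 78.2% for all genes were also mutant calls. The plot of D1 minus D2 differences shows them by family.

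**Figure D1:**
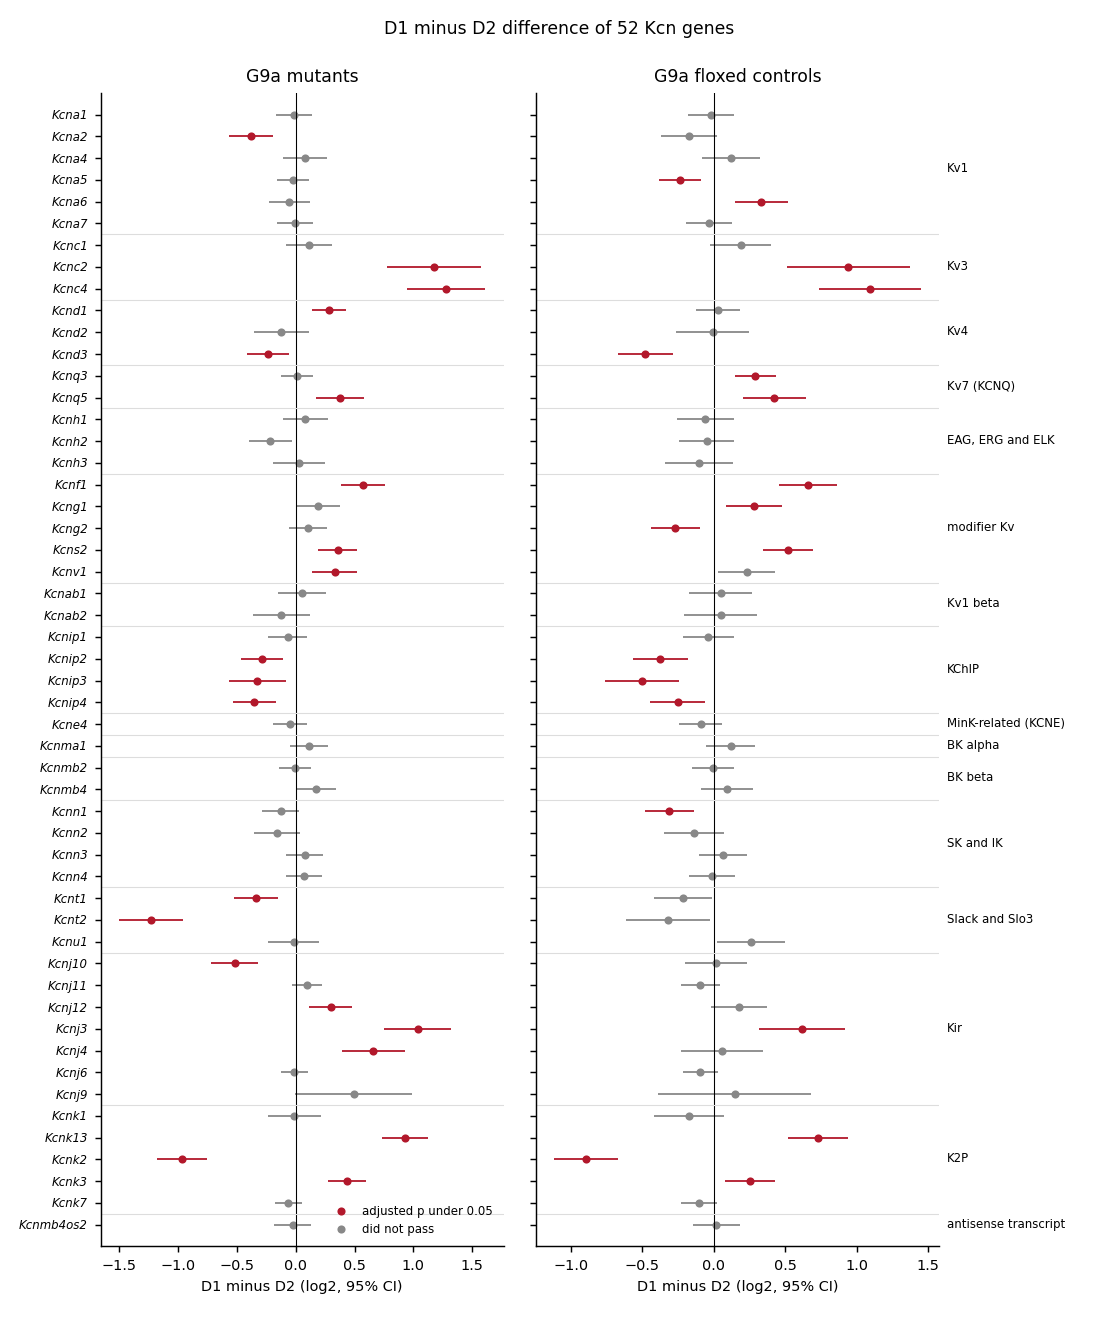
D1 minus D2 difference (log2, with 95% confidence interval) of the 52 Kcn genes above the floor, in 7 against 7 mutant arrays (left) and 6 against 7 control arrays (right), grouped by channel family. Red marks an adjusted p under 0.05: 21 genes in mutants and 19 in controls, with Kcnc4, Kcnc2 and Kcnk13 far to the D1 side and Kcnk2 to the D2 side in both panels.

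The leak channels gave the smallest adjusted p-values in controls. Kcnk2 encodes TREK-1, a K2P channel opened by stretch and by lipids. Its lowest, median and highest values were 11.25, 11.49 and 11.79 in D1 mutants against 12.33, 12.41 and 12.62 in D2 mutants. In controls they were 10.89, 11.53 and 11.60 in D1 neurons against 12.15, 12.33 and 12.56 in D2 neurons. Every D1 array lay below every D2 array in both genotypes. The difference was -0.97 in mutants (SE 0.10, adjusted p 5.50e-08) and -0.89 in controls (SE 0.11, adjusted p 1.11e-06), that is 1.96-fold and 1.86-fold lower in D1.

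Kcnk13 encodes THIK-1, a K2P channel best known from microglia. It ran from 7.16 to 7.9975 with a median of 7.68 in D1 mutants, against 6.66 to 6.87 with a median of 6.76 in D2 mutants. In D1 controls it ran from 7.32 to 7.62 with a median of 7.49, against 6.62 to 6.99 with a median of 6.70 in D2 controls. The D1 and D2 arrays did not overlap in either genotype. The difference was 0.93 in mutants (SE 0.09, adjusted p 3.57e-08) and 0.73 in controls (SE 0.10, adjusted p 7.33e-06). None of the 2 microglial markers above the floor passed in either contrast, and the other 6 of 8 (Aif1, C1qa, C1qb, Cx3cr1, Itgam and P2ry12) were below the floor in all 27 arrays. Kcnk3, the acid-sensitive channel TASK-1, was also higher in D1, by 0.43 in mutants and 0.25 in controls. Its adjusted p in controls was 0.0245 and exceeded 0.05 when any of 4 arrays was left out (up to 0.0813). Kcnk1 and Kcnk7 passed in neither genotype.

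The Kv3 genes encode fast delayed rectifiers that shorten the action potential. Kcnc4 (Kv3.4) had a lowest, median and highest value of 7.37, 7.84 and 8.44 in D1 mutants against 6.42, 6.72 and 6.91 in D2 mutants. In controls these were 7.17, 7.73 and 8.26 in D1 neurons against 6.26, 6.59 and 6.80 in D2 neurons. All D1 arrays were above all D2 arrays. The difference was 1.28 in mutants (2.42-fold, SE 0.16, adjusted p 1.05e-06) and 1.09 in controls (2.13-fold, SE 0.17, adjusted p 4.17e-05). A second Kcnc4 probe set, of mean level 6.77, did not pass in controls (0.02, adjusted p 0.880 over all probe sets) and was higher in D1 mutants by 0.20 (adjusted p 0.0371), and the probe set used can bind several transcripts by its design suffix. Kcnc2 (Kv3.2) was higher in D1 by 1.17 in mutants and 0.94 in controls, and Kcnc1 (Kv3.1) was at 0.11 in mutants and 0.19 in controls without passing.

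Of 5 modifier subunits, which carry no current of their own and change Kv2 channels, 3 were higher in D1 in mutants, and 3 were higher and 1 lower in controls. Kcnf1 (Kv5.1) ran from 9.60 through a median of 10.04 to 10.31 in D1 mutants against 9.09, 9.35 and 9.89 in D2 mutants. In D1 controls it ran from 9.84 through 9.95 to 10.10, against 9.16, 9.32 and 9.49 in D2 controls. The control arrays did not overlap, whereas the mutant arrays did. The difference was 0.57 in mutants (adjusted p 2.38e-05) and 0.66 in controls (SE 0.10, adjusted p 1.82e-05).

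Kcns2 (Kv9.2) had a lowest, median and highest value of 10.58, 10.88 and 10.98 in D1 mutants against 10.33, 10.48 and 10.61 in D2 mutants. In controls it had 10.52, 10.64 and 10.76 in D1 neurons against 9.64, 10.12 and 10.35 in D2 neurons, with no overlap between the control groups. The difference was 0.36 in mutants (adjusted p 9.25e-04) and 0.52 in controls (SE 0.09, adjusted p 6.28e-05). Second probe sets of Kcnf1 (0.41, adjusted p 0.00430) and Kcns2 (1.07, adjusted p 2.92e-05) were also higher in D1 controls, and in mutants they gave 0.16 (adjusted p 0.185) for Kcnf1 and 0.83 (adjusted p 1.31e-04) for Kcns2. Kcnv1 was higher in D1 mutants by 0.33, and Kcng1 was higher (0.28) and Kcng2 lower (-0.27) in D1 controls. Kcng2 was above the floor in 7 arrays, 6 of them D2 controls, so it was tested through the group in which it was high; its adjusted p was 0.0203 over all 18193 genes and 0.0991 without D1 control saline replicate 2. Counting D2 mutant cocaine replicate 4 as a control ended the control calls of Kcng1 (adjusted p 0.201) and Kcng2 (0.0837), and the mean of all probe sets ended that of Kcng1 (0.15, adjusted p 0.0821).

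The Kv4 channels and the KChIP calcium sensors that bind them carry the transient A-type current. Kcnip2 ran from 11.82 through 12.05 to 12.37 in D1 mutants against 12.13, 12.39 and 12.49 in D2 mutants. In D1 controls it ran from 11.63 through 11.97 to 12.29, against 11.98, 12.38 and 12.51 in D2 controls. Both pairs of groups overlapped. The difference was -0.29 in mutants (adjusted p 0.00987) and -0.38 in controls (SE 0.09, adjusted p 0.00349).

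Kcnip3, whose protein is also known as the transcriptional repressor DREAM, had 8.44, 8.85 and 9.12 as lowest, median and highest in D1 mutants against 8.82, 9.25 and 9.48 in D2 mutants. In controls it had 8.24, 8.86 and 8.96 in D1 neurons against 9.07, 9.23 and 9.64 in D2 neurons. The control groups were separate and the mutant groups overlapped. The difference was -0.33 in mutants (adjusted p 0.0274) and -0.50 in controls (SE 0.13, adjusted p 0.00362), and a second probe set gave -0.36 in controls (adjusted p 6.37e-04) and -0.14 in mutants (adjusted p 0.108). Kcnip4 differed by -0.35 in mutants (adjusted p 0.00230) and by -0.25 in controls, where the adjusted p was 0.0459 and exceeded 0.05 when any of 17 arrays was left out (up to 0.124). Kcnip1 passed in neither genotype, so 3 of 4 KChIP genes were lower in D1 in mutants and in controls. With glial markers as a covariate all 3 lost the mutant call: Kcnip2 was at -0.25 (adjusted p 0.111), Kcnip3 at -0.33 (adjusted p 0.113) and Kcnip4 at -0.29 (adjusted p 0.0569). Under cyclic loess scaling Kcnip2 (-0.15, adjusted p 0.178) and Kcnip3 (-0.27, adjusted p 0.0685) lost it too. Kcnip2 also lost the mutant call with the mean of all probe sets. Kcnip3 lost it without the arrays of high Ttr and when any of 5 arrays was left out (adjusted p up to 0.0896).

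Kcnd3 (Kv4.3) had 7.44, 7.96 and 8.02 in D1 mutants against 7.90, 8.09 and 8.34 in D2 mutants. In controls it had 7.63, 7.99 and 8.07 in D1 neurons against 8.32, 8.36 and 8.49 in D2 neurons. The control groups did not overlap. The difference was -0.24 in mutants (adjusted p 0.0297) and -0.48 in controls (SE 0.09, adjusted p 3.52e-04). In mutants the Kcnd3 call was lost with the glial covariate (-0.11, adjusted p 0.476), under cyclic loess (adjusted p 0.0584) and with D2 mutant cocaine replicate 4 as a control (adjusted p 0.0672). Kcnd2 (Kv4.2) passed in neither genotype, and Kcnd1 (Kv4.1) was higher in D1 mutants by 0.29. Kcnd1 did not pass there with the glial covariate (adjusted p 0.0640).

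**Figure D2:**
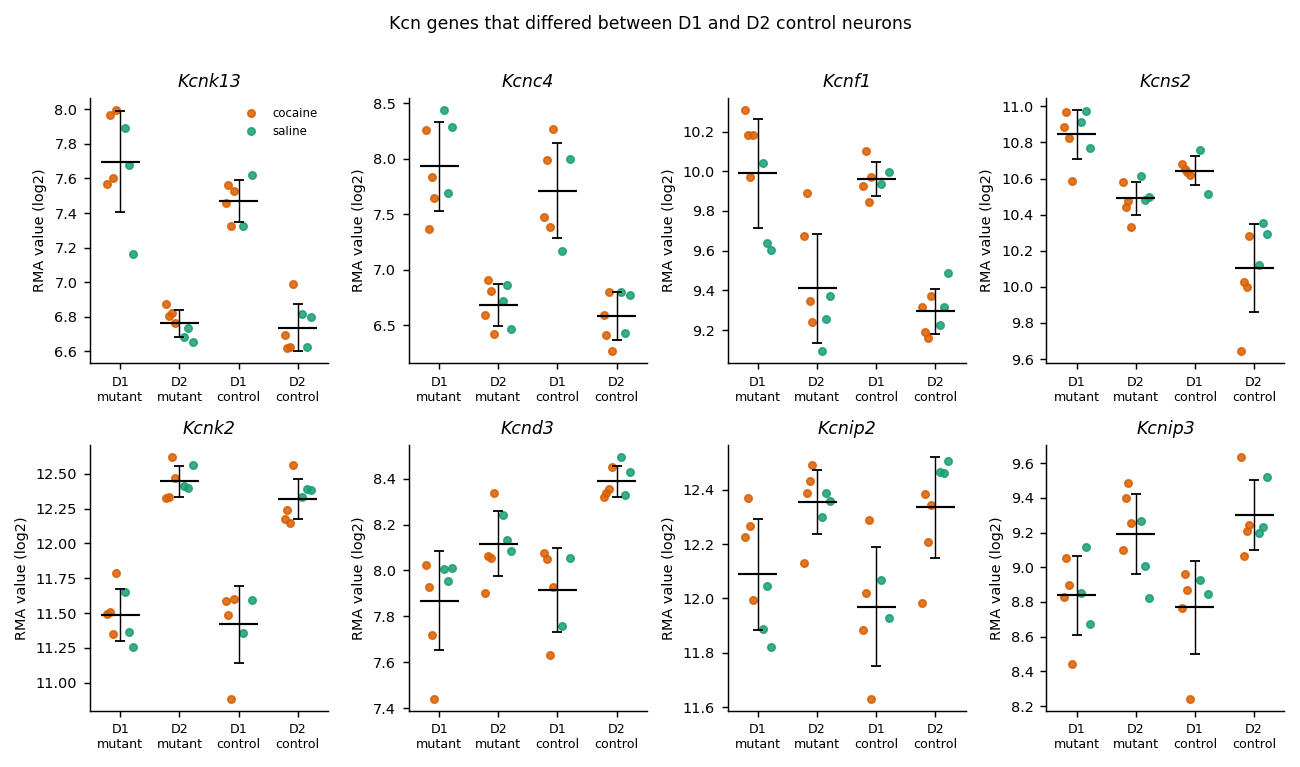
RMA values (log2) of 8 Kcn genes with small p-values in the D1 minus D2 control contrast, with 1 point per array (orange cocaine, green saline) and the mean with SD as black lines, for D1 mutants (7), D2 mutants (7), D1 controls (6) and D2 controls (7). The upper row is higher in D1 and the lower row higher in D2, and Kcnk13, Kcnc4 and Kcnk2 show no overlap of D1 with D2 arrays in either genotype.

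Among inward rectifiers, Kcnj3 (GIRK1, opened by G proteins) was higher in D1 by 1.04 in mutants (adjusted p 1.91e-06) and 0.62 in controls (adjusted p 0.00248). A second Kcnj3 probe set, of mean level 6.57, was at -0.00 in controls (adjusted p 0.995) and 0.23 in mutants (adjusted p 0.0605). Kcnj4 (Kir2.3) and Kcnj12 (Kir2.2), which hold the resting potential, were higher in D1 mutants by 0.66 and 0.30, and Kcnj10 (Kir4.1, a glial channel) was lower there (-0.52). None of these 3 passed in controls, and Kcnj6, Kcnj9 and Kcnj11 (the pore of the ATP-sensitive channel) passed in neither genotype.

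The M-current subunit Kcnq5 was higher in D1 by 0.38 in mutants and 0.42 in controls, with 0.45 in controls (adjusted p 0.00185) and 0.17 in mutants (adjusted p 0.162) from a second probe set. Kcnq3 was higher in controls by 0.29 (adjusted p 0.00273). Among Kv1 genes, Kcna2 was lower in D1 mutants (-0.38), while in controls Kcna6 was higher (0.33) and Kcna5 lower (-0.24). Kcna2 did not pass with the mean of all probe sets (-0.10, adjusted p 0.0761) or the glial covariate (-0.27, adjusted p 0.0694). Kcna6 did not pass with D2 mutant cocaine replicate 4 as a control (0.17, adjusted p 0.557). Kcna5 did not pass under cyclic loess (-0.18, adjusted p 0.0742) or when D1 control saline replicate 2 was left out (0.0812). The small conductance channel Kcnn1 was lower in D1 controls (-0.31, and -0.29 from a second probe set). Kcnn1 did not pass when D1 control saline replicate 2 was left out (adjusted p 0.0651). The sodium-activated channels Kcnt1 and Kcnt2 differed by -0.34 and -1.23 in mutants, both lower in D1, and Kcnt1 did not pass with the glial covariate (-0.23, adjusted p 0.138). Kcnt2 was tested through the D2 mutants, the group in which it was high, and its D1 values all lay below the floor. Its limma adjusted p for this difference was 6.60e-08 over all 18193 genes. No BK, Kv1 beta, KCNE, EAG, ERG or ELK gene passed in either genotype.

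Of the Kcn genes that passed in 1 genotype alone, 8 passed in mutants and 6 in controls. Of all 12017 genes tested, 5091 passed in mutants and 3480 in controls, with 2720 in both. Passing in 1 genotype alone is thus common over all genes. Whether the subtype difference itself depended on genotype was tested by the interaction of subtype and genotype, and Kcnt2 was the one Kcn gene to pass it (described with the genotype comparison). The other genes are therefore not shown to differ between genotypes.

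Other cell types were visible in the same contrasts. Markers of GABAergic interneurons were higher in D1 for 5 of 8 (2 lower) in mutants and 5 of 8 (none lower) in controls. Their summed level ranged from 10.48 to 11.66 in D1 mutants against 10.25 to 10.79 in D2 mutants, and from 10.46 to 11.06 in D1 controls against 10.07 to 10.38 in D2 controls. Within this list, Pvalb did not pass (0.17 in mutants, 0.23 in controls). Cortical excitatory markers were higher in D1 for 4 of 4 in mutants and 3 of 4 in controls, with summed levels from 8.70 to 10.49 in D1 mutants against 8.36 to 8.59 in D2 mutants and from 8.16 to 9.86 in D1 controls against 7.66 to 8.24 in D2 controls. Slc17a7, the vesicular glutamate transporter that defines them, was below the floor in every array. Oligodendrocyte markers were lower in D1 for 6 of 7 in mutants and 5 of 7 in controls, with summed levels from 11.47 to 12.07 in D1 mutants against 12.44 to 12.83 in D2 mutants and from 11.48 to 11.89 in D1 controls against 11.44 to 12.39 in D2 controls. Both cholinergic interneuron markers above the floor were lower in D1 in mutants and in controls, while Chat and Slc5a7 were below it in every array. Astrocyte markers were higher in D1 for 2 of 7 in controls (median difference 0.30, against -0.48 for oligodendrocyte markers). In mutants 0 of 7 passed (median difference -0.01, against -0.70). The glial covariate is the mean of both lists, which differed in direction in controls. With glial markers as a covariate 12 Kcn genes were higher and 3 lower in D1 mutants, and 27.7% of all genes passed in that fit. The part of these cells in the Kcn differences was not tested.

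Genes that act with these channels were counted from a list of 30 partners, of which 22 were above the floor. In mutants 8 were higher and 5 lower in D1, and in controls 5 and 5. The Kv1 partner Adam23 (0.42 in mutants, 0.61 in controls), the Kv7 anchor Akap5 (0.58 and 0.68), the sulfonylurea receptor Abcc8 (0.40 and 0.31) and Lingo1 (0.53 and 0.31) were higher in D1 in both genotypes. The Kv4 auxiliary Dpp6 (-0.40 in mutants, -0.25 in controls) and the G protein regulators Gnb5 (-0.53 and -0.48) and Rgs7bp (-0.83 and -0.61) were lower in both. Dpp10 (0.57), Snx27 (0.57), Amigo1 (0.32) and Cntn2 (0.32) passed as higher and Rgs7 (-0.34) and Hcn3 (-0.21) as lower in the mutant contrast, and Adam22 (0.20) as higher and Hcn2 (-0.29) and Cntnap2 (-0.24) as lower in the control contrast. None of the 22 passed the interaction of subtype and genotype by limma (3 at an unadjusted p under 0.05), so none is shown to differ between genotypes.

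The second question was how Kcn genes differed between G9a mutants and controls. In D1 neurons 2 Kcn genes were higher in mutants and none was lower, against 3.10% of all genes higher and 1.12% lower (4.22% in either direction) and 3.85% of Kcn genes in either. In D2 neurons 5 were higher and 4 lower, against 8.41% and 3.82% of all genes (12.2% in either) and 17.3% of Kcn genes in either. The median Kcn change was 0.00 in D1 and 0.00 in D2, beside 0.01 and 0.02 over all genes. Among the 46 members above the floor in every array, 2 were higher and 0 lower in D1 mutants, and 4 were higher and 3 lower in D2 mutants, where 3.42% and 11.5% of all 10281 such genes passed.

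**Figure D3:**
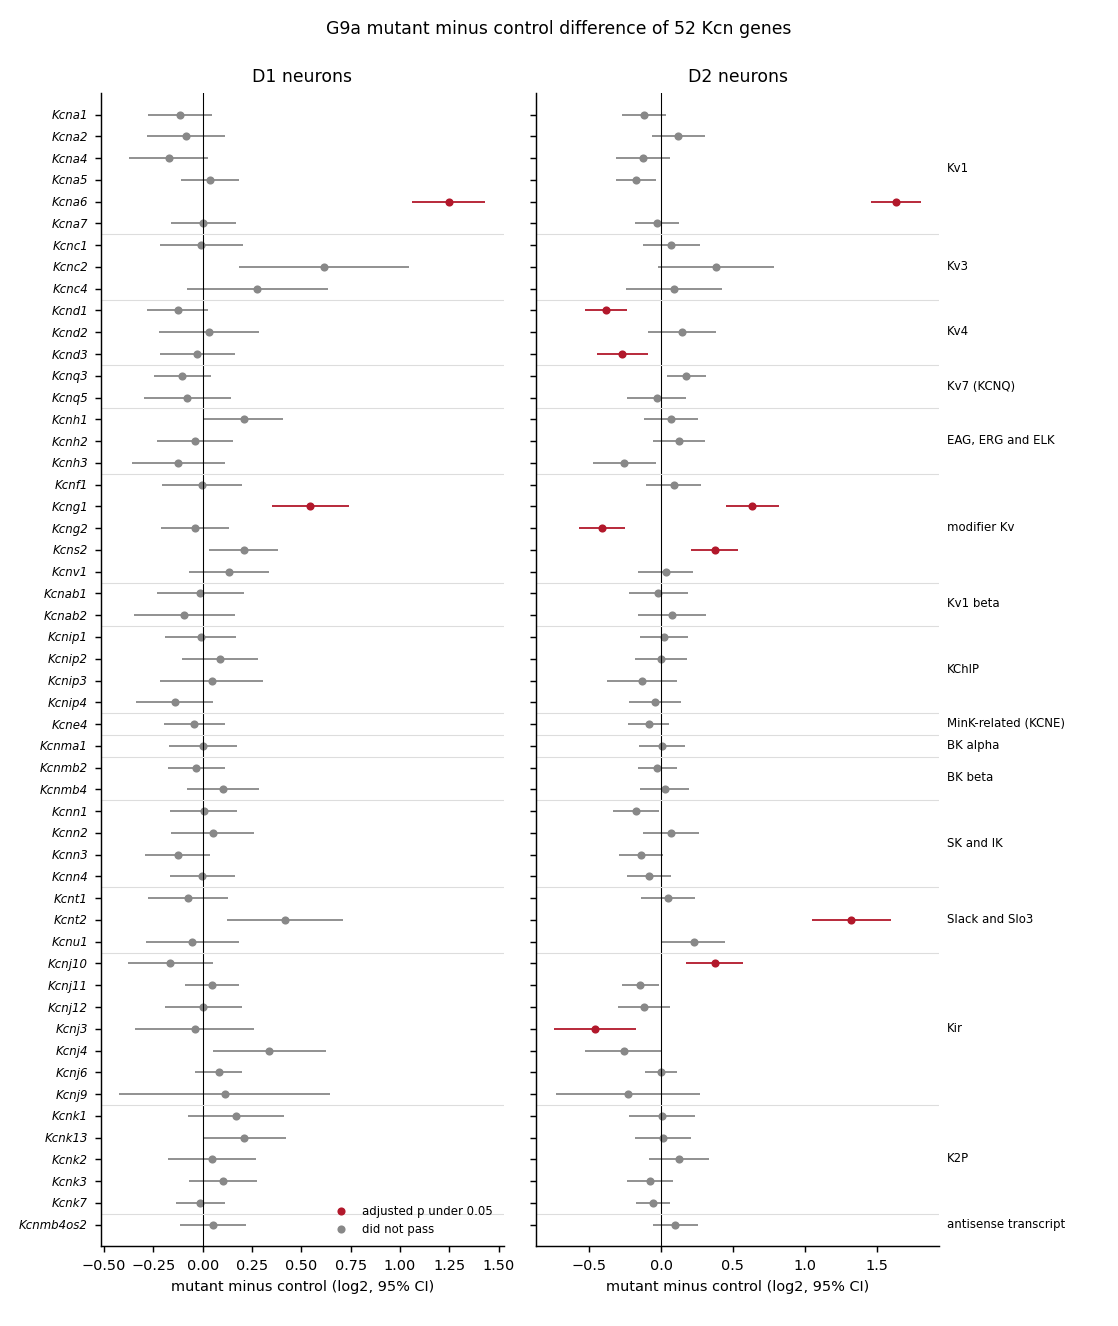
Mutant minus control difference (log2, with 95% confidence interval) of the 52 Kcn genes above the floor in D1 neurons (left, 7 against 6 arrays) and D2 neurons (right, 7 against 7 arrays), grouped by family. Red marks an adjusted p under 0.05: Kcna6 and Kcng1 in D1, and 9 genes in D2, with Kcna6 at 1.25 and 1.64 and Kcnt2 at 1.33 in D2 farthest from 0.

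Kcna6, the Kv1.6 pore subunit of dendrotoxin-sensitive delayed rectifiers, had the largest change of any Kcn gene in both subtypes. In D1 mutants it was at 9.70, 9.73, 9.68 and 9.51 with cocaine and 9.65, 9.64 and 9.03 with saline. In D1 controls it was at 8.49, 8.47, 8.64 and 8.21 with cocaine and 8.23 and 8.06 with saline. All 7 mutant arrays lay above all 6 control arrays, with replicate 3 of the saline mutants the lowest mutant. The change was 1.25 (2.37-fold, SE 0.09, adjusted p 2.04e-10).

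In D2 mutants Kcna6 was at 9.57, 9.80, 9.56 and 9.57 with cocaine and 9.60, 9.49 and 9.64 with saline. In D2 controls it was at 7.998, 7.87, 7.84 and 7.90 with cocaine and 8.02, 8.08 and 7.99 with saline. The groups were again separate. The change was 1.64 (3.11-fold, SE 0.08, adjusted p 1.51e-13), and its difference between D2 and D1 (0.39, SE 0.12, adjusted p 0.158) did not pass.

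A second Kcna6 probe set moved the other way. Its mean level was 6.41, and it changed by -0.36 in D2 mutants (adjusted p 0.00323 over all probe sets) and by -0.28 in D1 mutants (adjusted p 0.0816). Its remaining probe set lay below the floor. The mean of the probe sets gave 0.31 in D1 (adjusted p 0.00164) and 0.34 in D2 (adjusted p 1.51e-04), so the size of the Kcna6 change rests on 1 probe set. Kcna6 lies on chromosome 6 beside Kcna1 and Kcna5 and before Ndufa9 in the RefSeq gene order (GRCm38.p6). Kcna1 (-0.12 in D1 and -0.12 in D2), Kcna5 (0.04 and -0.18) and Ndufa9 (0.04 and 0.14) did not pass.

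The promoters of the genes that lead this comparison are shown because the deleted enzyme acts on chromatin and their CG content is a feature that can be set against all promoters. Each is the RefSeq window (GRCm38.p6) from 250 bases before to 50 after the gene's start, read 5′ to 3′ on the gene's strand, with CG dinucleotides in capitals. Kcna6 is on the minus strand at chr6:126740625-126740924 and Kcnt2 on the plus strand at chr1:140245468-140245767. Kcng1 has no entry in the promoter table.
Kcna6: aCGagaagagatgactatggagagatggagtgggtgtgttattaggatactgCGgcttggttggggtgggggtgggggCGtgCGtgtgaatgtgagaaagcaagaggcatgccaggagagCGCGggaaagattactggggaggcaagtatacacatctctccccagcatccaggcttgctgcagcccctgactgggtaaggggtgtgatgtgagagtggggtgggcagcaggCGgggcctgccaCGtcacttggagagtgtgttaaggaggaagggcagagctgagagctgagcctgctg
Kcnt2: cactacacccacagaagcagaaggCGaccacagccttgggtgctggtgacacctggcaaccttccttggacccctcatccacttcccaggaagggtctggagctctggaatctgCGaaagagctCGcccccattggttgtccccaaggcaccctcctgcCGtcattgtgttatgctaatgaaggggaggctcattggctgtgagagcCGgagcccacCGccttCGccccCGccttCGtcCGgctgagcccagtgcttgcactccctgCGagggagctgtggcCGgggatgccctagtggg
The Kcna6 window holds 8 CG and 58.3% G or C, and 51.4% of 32851 promoters of the same length held fewer CG. The Kcnt2 window holds 12 CG and 62.7% G or C, with fewer in 60.4% of promoters. The median was 9 over 88 promoters of 63 Kcn genes and 7 over all promoters. Both windows hold TGACG or its reverse complement once, as do 20.8% of all promoters, and neither holds TGACGTCA on either strand (1.79% of promoters) or TGANTCA (7.81%). The letters TGACG are contained in TGACGTCA, so these searches overlap.

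Kcng1 (Kv6.1), a modifier subunit of Kv2 channels, was higher in both mutants. In D1 mutants it was at 8.73, 8.51, 8.53 and 8.42 with cocaine and 8.39, 8.79 and 8.05 with saline, against 7.90, 7.81, 7.87 and 7.86 with cocaine and 8.09 and 7.94 with saline in D1 controls. The lowest saline mutant, replicate 3, lay below the highest control, and the other arrays were separate. The change was 0.54 (SE 0.09, adjusted p 3.99e-04).

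In D2 mutants Kcng1 was at 7.95, 8.41, 8.36 and 8.36 with cocaine and 8.29, 8.19 and 8.44 with saline. In D2 controls it was at 7.53, 7.57, 7.67 and 7.68 with cocaine and 7.72, 7.68 and 7.67 with saline. Every mutant was above every control. The change was 0.64 (SE 0.09, adjusted p 1.21e-05), and the difference between the subtypes was 0.09 (SE 0.13, adjusted p 0.860). With the mean of both its probe sets, 1 of them below the floor, the D1 change was 0.21 (adjusted p 0.0837) and the D2 change 0.25 (adjusted p 0.00807).

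Kcnt2 encodes Slick, a potassium channel opened by intracellular sodium. In D2 mutants it was at 6.24, 6.08, 6.14 and 6.23 with cocaine and 6.12, 6.62 and 6.16 with saline, against 4.72, 5.25, 4.76 and 4.86 with cocaine and 5.06, 4.80 and 4.91 with saline in D2 controls. The 7 mutant arrays were all above the floor of 6 and the 7 control arrays all below it. The change was 1.33 (SE 0.13, adjusted p 5.50e-08). Since Kcnt2 entered the test through the group in which it was high, its presence among the tested genes is no evidence of its own; in the fit of all 18193 genes its adjusted p was 4.05e-08.

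In D1 mutants Kcnt2 was at 4.96, 4.95, 5.07 and 4.50 with cocaine and 5.35, 5.12 and 4.96 with saline, against 4.60, 4.78, 4.00 and 5.13 with cocaine and 4.42 and 4.68 with saline in D1 controls. All of these lay below the floor and the groups overlapped. The D1 change of 0.42 did not pass (adjusted p 0.118). The difference of the changes, D2 minus D1, was 0.91 (SE 0.19, 95% confidence interval 0.51 to 1.31, adjusted p 0.0184). Kcnt2 was the 1 Kcn gene of 52 to pass this interaction, which 0.990% of all genes passed (0.657% in this direction), and no member above the floor in every array passed it. Its adjusted p was 0.0764 without D1 control saline replicate 2, 0.134 with glial markers as a covariate and 0.366 with the D2 mutant cocaine replicate 4 counted as a control.

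**Figure D4:**
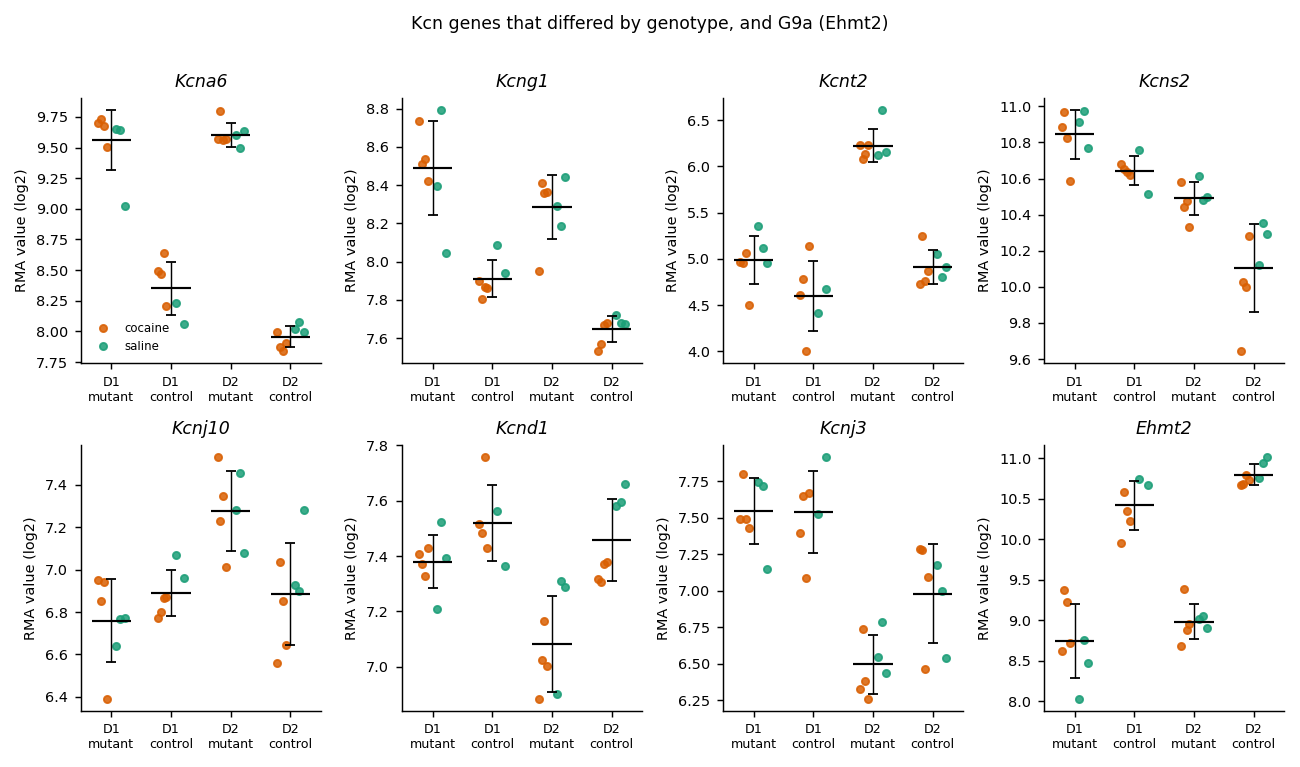
RMA values (log2) of 7 Kcn genes that passed in a mutant minus control contrast, and of the deleted gene Ehmt2, with 1 point per array (orange cocaine, green saline) and the mean with SD as black lines, for D1 mutants (7), D1 controls (6), D2 mutants (7) and D2 controls (7). Kcna6 is separate between genotypes in both subtypes, Kcnt2 in D2 neurons alone, and Ehmt2 is lower in every mutant array than in every control array of its subtype.

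The other changes in D2 mutants were smaller. Kcns2, a modifier subunit that was also higher in D1 than in D2 neurons, ran from 10.33 to 10.61 with a median of 10.48 in D2 mutants against 9.64 to 10.35 with a median of 10.12 in D2 controls. The groups overlapped at their edge, and the change was 0.37 (SE 0.08, adjusted p 0.00229). Its D1 change was 0.21 (adjusted p 0.253).

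Kcnd1 (Kv4.1) ran from 6.89 to 7.31 with a median of 7.02 in D2 mutants against 7.30 to 7.66 with a median of 7.38 in D2 controls. The groups met at their edge, and Kcnd1 fell in D2 mutants with a change of -0.38 (SE 0.07, adjusted p 4.41e-04). Kcng2, a modifier subunit, ran from 5.27 to 5.85 in D2 mutants against 5.87 to 6.20 in D2 controls. All mutant values lay below the floor and below the controls, and the change was -0.41 (SE 0.08, adjusted p 5.56e-04). Since Kcng2 passed the floor through D2 controls, its place among the tested genes is no evidence of its own; over all 18193 genes its adjusted p was 6.28e-04.

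Kcnj3 (GIRK1) ran from 6.26 to 6.78 with a median of 6.44 in D2 mutants against 6.47 to 7.28 with a median of 7.09 in D2 controls. The groups overlapped, and the change was -0.46 (SE 0.14, adjusted p 0.0273). Kcnd3 (Kv4.3) changed by -0.27 (adjusted p 0.0404). Both are lower in D2 mutants, and the adjusted p exceeded 0.05 when any of 7 arrays (Kcnj3, up to 0.0963) or any of 11 arrays (Kcnd3, up to 0.101) was left out. Kcnj3 also did not pass with the mean of all probe sets or with D2 mutant cocaine replicate 4 as a control (adjusted p up to 0.198). Kcnd3 did not pass under median centring, with array weights or with every probe set fitted on its own (adjusted p up to 0.0740).

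Kcnj10, the Kir4.1 channel of astrocytes and oligodendrocytes, ran from 7.01 to 7.53 with a median of 7.28 in D2 mutants against 6.56 to 7.28 with a median of 6.90 in D2 controls, a change of 0.37 (SE 0.10, adjusted p 0.0117) between groups that overlapped. In D1 it did not pass (-0.17, adjusted p 0.561), and the difference between subtypes was 0.54 (adjusted p 0.0731). Oligodendrocyte markers rose in D2 mutants for 5 of 7, with a median change of 0.54, and their summed level ranged from 12.44 to 12.83 in D2 mutants against 11.44 to 12.39 in D2 controls. In D1 mutants 1 of 7 rose. Astrocyte markers rose for 1 of 7 in D2 mutants, with a median change of 0.40 and a summed level from 10.80 to 11.21 in D2 mutants against 10.06 to 10.84 in D2 controls. Drd1 was also higher (0.54) and Drd2 lower (-0.49) in D2 mutants. Of 2 cholinergic interneuron markers above the floor 1 rose in D2 mutants (median change 0.77) and none in D1 mutants, and 1 passed the difference between subtypes. The summed level of the 4 such markers on the array ranged from 9.15 to 9.59 in D2 mutants against 7.96 to 9.10 in D2 controls, without overlap, with Chat and Slc5a7 below the floor in every array. Choroid plexus and ependymal markers rose for 2 of 3 in D2 mutants (median change 0.76) and 1 of 3 in D1 mutants (median change 1.18). The part of these cell types in the changes of Kcnt2 and the other Kcn genes was not tested beyond the glial covariate. With glial markers as a covariate, Kcnj10 (0.19, adjusted p 0.574), Kcns2 (0.17, adjusted p 0.467), Kcnj3 (-0.57, adjusted p 0.126) and Kcnd1 (-0.31, adjusted p 0.0935) no longer passed in D2, and Kcna6, Kcnt2, Kcng1, Kcng2 and Kcnd3 still did, while 4.00% of all genes passed in that fit. The change became smaller for Kcnj10 and Kcns2, was larger for Kcnj3 and stayed near its value for Kcnd1.

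Among the 22 channel partners, Dpp10, an auxiliary subunit that speeds Kv4 currents, was lower in both mutants, by -0.50 in D1 (adjusted p 0.0100) and -0.76 in D2 (adjusted p 2.04e-05). Adam22, which anchors Kv1 complexes through LGI1, was higher in D2 mutants by 0.32 (adjusted p 9.45e-04). No other partner passed in either subtype. The 24 Kcn genes that passed in none of 11 contrasts were Kcna4, Kcna7, Kcnab1, Kcnab2, Kcnc1, Kcnd2, Kcne4, Kcnh1, Kcnh2, Kcnh3, Kcnip1, Kcnj6, Kcnj9, Kcnj11, Kcnk1, Kcnk7, Kcnma1, Kcnmb2, Kcnmb4, Kcnmb4os2, Kcnn2, Kcnn3, Kcnn4 and Kcnu1.

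The third question was the effect of repeated cocaine. Over both subtypes and genotypes, weighted equally, 2 Kcn genes were higher with cocaine and none was lower, against 0.649% of all genes higher and 0.150% lower (0.799% in either direction) and 3.85% of Kcn genes. Both are Kv1 pore genes and neighbours on chromosome 6. Among the Kv1 pores, Kv1.1 sets the spike threshold of axons and Kv1.5 is a delayed rectifier best known from heart muscle.

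Kcna5 (Kv1.5) was at 10.05, 10.37, 10.30 and 10.06 with cocaine against 9.88, 9.95 and 9.71 with saline in D1 mutants. It was at 10.30, 10.10, 10.18 and 10.35 with cocaine against 9.78 and 9.69 with saline in D1 controls. In D2 mutants it was at 9.99, 10.19, 10.22 and 10.22 with cocaine against 10.08, 9.85 and 9.89 with saline. In D2 controls it was at 10.38, 10.33, 10.34 and 10.28 with cocaine against 10.21, 9.98 and 10.12 with saline, and cocaine and saline arrays thus overlapped in D2 mutants and in none of the other 3 pairs of groups. The change over all was 0.32 (1.25-fold, SE 0.05, adjusted p 7.16e-04).

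Kcna1 (Kv1.1) ran from 11.12 through a median of 11.26 to 11.52 in the 16 cocaine arrays against 10.66, 11.06 and 11.28 in the 11 saline arrays. The ranges overlapped. The change over all was 0.24 (1.18-fold, SE 0.05, adjusted p 0.0275). Other probe sets of Kcna1 gave 0.14 and 0.12 without passing (adjusted p 0.386 and 0.801 over all probe sets), and leaving out any of 6 saline arrays took the adjusted p above 0.05, up to 0.105. Kcna6, the next gene of this cluster, was at 0.11 (adjusted p 0.580) and Ndufa9 beyond it at 0.08 (adjusted p 0.637).

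**Figure D5:**
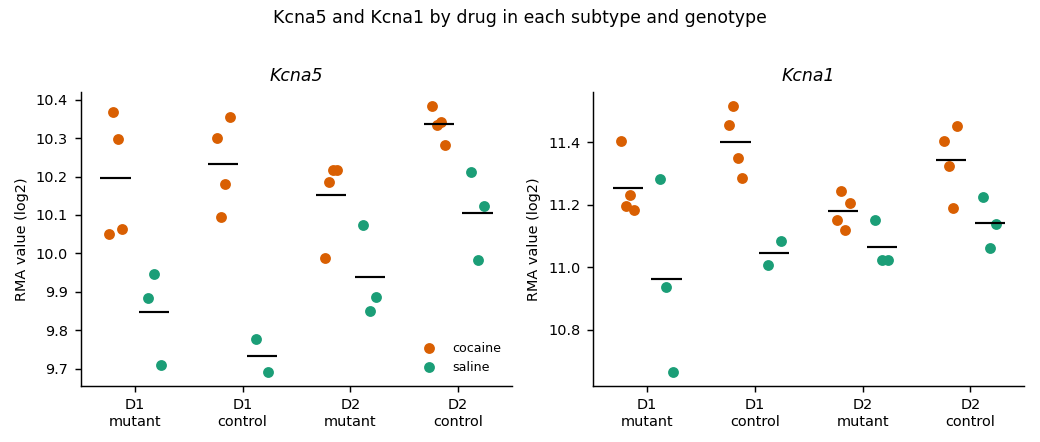
RMA values (log2) of Kcna5 and Kcna1 with cocaine (orange, left of each pair, 4 arrays) and saline (green, right, 2 or 3 arrays) in each subtype and genotype, with 1 point per array and the group mean as a black line. The cocaine mean is above the saline mean in all 4 pairs for both genes.

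The promoter of Kcna5 is shown for the same window and build, as the gene with the smaller p of the cocaine pair, on the minus strand at chr6:126535506-126535805, with CG dinucleotides in capitals. Kcna1 has no entry in the promoter table.
Kcna5: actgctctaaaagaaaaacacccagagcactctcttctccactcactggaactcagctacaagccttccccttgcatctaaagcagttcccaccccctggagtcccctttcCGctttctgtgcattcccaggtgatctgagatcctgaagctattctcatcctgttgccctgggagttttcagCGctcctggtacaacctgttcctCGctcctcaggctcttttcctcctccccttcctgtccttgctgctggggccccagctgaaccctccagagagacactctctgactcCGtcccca
It holds 4 CG and 55.0% G or C, and 31.4% of promoters held fewer CG. Neither TGACGTCA, the cAMP response element, nor the shorter TGACG, nor TGANTCA, the AP-1 site, occurs in it on either strand, which says only that these letters are not in this window.

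Within single subtypes and genotypes no Kcn gene passed. In D1 mutants, where 0.0915% of all genes passed, 7 Kcn genes had an unadjusted p under 0.05, and the smallest were Kcna5 (0.35, adjusted p 0.139), Kcnk7 (0.27, adjusted p 0.192) and Kcnf1 (0.40, adjusted p 0.224). In D1 controls, where 0.0666% passed, 5 had an unadjusted p under 0.05, with Kcna5 (0.50, adjusted p 0.0603), Kcna1 (0.36, adjusted p 0.232) and Kcnma1 (-0.34, adjusted p 0.274) the smallest. In D2 mutants, where 0% passed, 4 did, with Kcnf1 (0.30), Kcnj12 (-0.29) and Kcna5 (0.22) all at an adjusted p of 0.981. In D2 controls, where 0.133% passed, 5 did, with Kcnmb4 (-0.43, adjusted p 0.152), Kcnd1 (-0.27, adjusted p 0.349) and Kcna5 (0.23, adjusted p 0.424) the smallest.

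The cocaine change did not differ between subtypes for any Kcn gene at the threshold. The interaction of drug and subtype was passed by 0.0250% of all genes and by none of 52 Kcn genes, with 3 at an unadjusted p under 0.05 (Kcnn1 at 0.30, Kcnd1 at 0.25 and Kcna6 at 0.30, adjusted p 0.310, 0.357 and 0.363). For Kcna5 the D1 minus D2 difference of the cocaine change was 0.20 (95% confidence interval -0.00 to 0.40, adjusted p 0.455). None of the 22 channel partners passed in a cocaine contrast by limma, with 1 to 5 of them at an unadjusted p under 0.05 in each.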

How the data were processed

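The authors deposited log2 values for 45101 probe sets of 27 mouse arrays. The submitters' processing notes name RMA and Affymetrix Expression Console 1.1 as their source. The design text instead names global scaling in GCOS, another Affymetrix program, so the sources differ on how the values were made; they were taken as log2 values by their range. Polyribosome-associated RNA was biotin labelled, per the labels. Precision is limited by how many arrays a group has. Controls made up 64 probe sets, while 34945 had 1 gene symbol in the platform annotation, 932 had several and 9160 had none, and only those with 1 symbol were used.

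The brightest probe set on average stood for its gene, and 12017 genes above 6 (log2) in 3 or more arrays were tested. All 27 arrays were fitted in limma 3.58.1 (R 4.3.3) with 1 mean for each of 8 groups and equal weights of groups in a contrast. P-values were adjusted by Benjamini-Hochberg over all tested genes within each of 11 contrasts, at 0.05. The fit was tested on simulated data. All 83 Kcn genes matched the RefSeq gene table.

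Every passing Kcn gene is named. Values per array or their range are given for up to 4 genes in each direction in the genotype contrasts and the control subtype contrast. For cocaine they are given for up to 2 genes per contrast. Where none passed, the 3 smallest p are given. Members and lists were chosen with earlier results of these data known. Alternatives covered probe set, floor, scaling, moderation, weights, a block for the replicate number, covariates, a fold of 1.5 and each array left out. A restriction to genes above the floor in every array was added after seeing the data. Protein sequences were not used here.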

Additional observations from a re-analysis of the deposited data

Results flagged for a closer look

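Among 18 Kcn genes that lead the contrasts, each of the 72 groups of 4 arrays was checked for an array far from the others. Chance gives such an array in about 1 in 20 groups, and 4 were found. Kcna6 was at 9.80 in D2 mutant cocaine replicate 2, against 9.56 to 9.57 in the other 3 arrays of the group. Kcng1 was at 7.95 in D2 mutant cocaine replicate 1, against 8.36 to 8.41 in the others. Kcna5 was at 9.99 in D2 mutant cocaine replicate 1, against 10.19 to 10.22. Kcnk2 was at 10.89 in D1 control cocaine replicate 3, which is also 1 of the 3 arrays with a high Ttr level, against 11.48 to 11.60.

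Kcnt2 passed the interaction test of limma, with a change in mutants of 0.91 for D2 minus D1 (adjusted p 0.0184). It was tested through the D2 mutants, the group in which it was high, and all its D1 values lay below the floor. The call was lost without D1 control saline replicate 2 (adjusted p 0.0764) and with D2 mutant cocaine replicate 4 as a control (adjusted p 0.366). The glial covariate also ended it.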

How the results depend on the processing

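None of the 2197 alternative values of single Kcn genes reversed its direction, but many of them could not. Refits that kept the group means kept the change. The fit of every probe set kept the one with the smallest p for each gene. A probe set that moved the other way, as for Kcna6 in D2 mutants, was therefore not counted. Of 54 gene calls, 34 held under all alternatives they were tested in, 42 without each array in turn, and 32 under both. These tallies leave out the fold of 1.5 and the restriction to genes above the floor in every array. The cause of the losses was not tested. A fold of at least 1.5 as a further requirement left 7 Kcn genes in D1 minus D2 mutants, 6 in D1 minus D2 controls, 1 in D1 mutants, 3 in D2 mutants and 0 for cocaine over all. The mean of all probe sets left 1 in D1 mutants and 1 for cocaine over all, and median centring left 1 for cocaine over all. With array weights the counts were 7 in D1 mutants (8.06% of all genes passed), 3 for the difference of the G9a effect between subtypes, D2 minus D1 (2.93%), and for cocaine 3 in D1 controls (3.84%), 2 in D1 mutants (1.81%) and 1 in D2 controls (1.03%). The glial covariate left 5 in D2 mutants and 0 for the difference of the G9a effect. That difference also gave 0 with a floor of 7, with genes above the floor in every array, and with D2 mutant cocaine replicate 4 as a control, and it gave 2 with the RNA quality covariate and without the arrays of high Ttr. A floor of 7 and the removal of high Ttr arrays each gave 1 for cocaine in D1 controls. Leaving out each array gave 19 to 24 Kcn genes for D1 minus D2 in mutants, 14 to 21 in controls, 2 to 4 in D1 mutants (4 without D1 mutant saline replicate 3), 7 to 9 in D2 mutants, 0 to 2 for the difference of the G9a effect (0 without D1 control saline replicate 2), 1 to 2 for cocaine over all, 0 to 1 for cocaine in D1 controls (1 without D1 control cocaine replicate 2 or 3) and 0 to 0 in the remaining 4 cocaine contrasts. In all, 12 calls of 11 genes were lost without some array. Apart from those with array weights, the counts of this section are given without the share of all genes in the same refit. They therefore do not show whether Kcn genes moved more than other genes. The replicate number as a block gave 2 Kcn genes for the difference of the G9a effect, and moved no other count by over 1.5 times. Samples that share a number correlated above 0.1 in 25 of 83 pairs (median 0.00651), against 53 of 234 pairs with other numbers (median -0.00483), so the numbers do not show a pairing. No scaling moved the median of all genes by over 0.1.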
